A study of Homo sapiens with 6 samples.

Results

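Small nucleolar RNAs (snoRNAs) and small Cajal body RNAs (scaRNAs) were examined in SH-SY5Y cells, a human neuroblastoma line, after forced expression of the orphan nuclear receptor ERRγ. The loci were found by gene symbol: SNORD for C/D box snoRNAs, SNORA for H/ACA box snoRNAs and SCARNA for Cajal body RNAs, each followed by a number. Of 553 loci with such symbols, 133 were selected on a total of at least 60 counts over the 6 libraries, among 42124 genes with any count. They were 58 C/D loci, 65 H/ACA loci and 10 Cajal body loci. These loci were chosen by their total count, so their abundance is a description. SCARNA21B with 62 counts, SNORA68B with 60 and SNORD116-11 with 60 lay just inside this minimum, and SNORA59B with 58, SNORA36C with 55 and SNORD13E with 54 just outside it.

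SnoRNAs are short RNAs that work in protein complexes in the nucleolus. C/D RNAs pair with pre-rRNA and place 2′-O-methyl groups, and H/ACA RNAs place pseudouridines, whereas a few, such as U3 and U17, are needed for cutting the pre-rRNA itself. ScaRNAs carry out the same modifications on spliceosomal RNAs in Cajal bodies. Most human snoRNAs are cut out of introns of a host gene after splicing, while U3 and U13 are made from genes of their own.

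Both groups were SH-SY5Y cells collected 24 h after exposure to an adenovirus. The control virus carried GFP (Ad CMV GFP, replicates 1, 3 and 4), and the other carried the mouse Esrrg coding sequence with a triple Flag tag (Ad CMV 3xFlag-Esrrg, replicates 2, 3 and 4), both under the CMV promoter. The Esrrg virus was made in human embryonic kidney cells. Total RNA was depleted of rRNA and sequenced with a strand-specific kit, and no step selected short RNAs. The sources used here do not say that replicates were separate cultures, so p-values measure the spread between these libraries, which may be technical.

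ESRRG itself was 8.12-fold higher with the Esrrg virus (log2 fold change 3.02 ± 0.14 SE, adjusted p = 6.29e-07, n = 3 per group). Its level was 83.5, 90.3 and 86.8 CPM in control replicates 1, 3 and 4. With Esrrg it was 569, 771 and 777 CPM in replicates 2, 3 and 4. The part of this difference between Esrrg libraries in the results below was not tested. Assigned gene counts ran from 24969759 to 29700979 in control libraries and from 26513620 to 40859666 in Esrrg libraries. The Esrrg libraries were not alike. The share of reads that fell in no feature was 51.3% to 52.2% in the controls, 46.6% in Esrrg replicate 2, and 31.6% and 29.5% in Esrrg replicates 3 and 4. Of 10 noradrenergic markers of the line, 8 exceeded 1 CPM in every library, and TH and CHGA were listed at 0 in all of them. All 7 mesenchymal markers exceeded 1 CPM in every library. Noradrenergic markers summed to 718 to 779 CPM in controls and 543 to 716 CPM in Esrrg libraries. Mesenchymal markers summed to 7804 to 8017 CPM and 7947 to 8831 CPM. Leukocyte markers (3) stayed below 1 CPM, and embryonic kidney markers summed to 32.1 to 38.8 CPM in controls and 56.9 to 91.4 CPM in Esrrg libraries, with PAX2 at 0 throughout. The part of these markers in the results below was not tested.

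The sequences that carry the results are shown 5′ to 3′ on GRCh38, in lower case with box motifs in capitals (TGATGA for box C, CTGA for box D, ACA near the end for H/ACA RNAs). They were picked once the values were known: the most abundant locus, members that rose, and loci that fell. The gene named with a locus is the one assigned by the host rule given below, which takes protein-coding genes first.
SNORD3A (U3), chr17:19188016-19188232, plus strand: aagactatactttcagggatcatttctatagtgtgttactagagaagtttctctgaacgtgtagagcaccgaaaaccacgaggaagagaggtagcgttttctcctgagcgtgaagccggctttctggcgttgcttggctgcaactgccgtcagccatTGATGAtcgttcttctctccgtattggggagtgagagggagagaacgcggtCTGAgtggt
SNORD12C, intron of ZFAS1, chr20:49278940-49279028, plus strand: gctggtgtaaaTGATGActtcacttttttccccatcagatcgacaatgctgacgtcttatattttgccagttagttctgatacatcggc
SNORA73B (U17b), intron of RCC1, chr1:28508559-28508762, plus strand: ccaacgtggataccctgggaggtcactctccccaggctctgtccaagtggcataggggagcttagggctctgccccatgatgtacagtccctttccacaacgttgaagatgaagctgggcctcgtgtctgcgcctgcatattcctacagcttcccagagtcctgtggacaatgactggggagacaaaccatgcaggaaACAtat
SCARNA21, intron of CHD3, chr17:7906122-7906260, plus strand: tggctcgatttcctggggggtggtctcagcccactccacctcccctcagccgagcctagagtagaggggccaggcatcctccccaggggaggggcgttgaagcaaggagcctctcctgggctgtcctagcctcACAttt
SNORD81 copy, no same-strand host, chr7:137287687-137287762, plus strand: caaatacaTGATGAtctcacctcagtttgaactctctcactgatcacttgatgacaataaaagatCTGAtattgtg
SNORD42 copy, intron of TTC28, chr22:28232756-28232823, minus strand: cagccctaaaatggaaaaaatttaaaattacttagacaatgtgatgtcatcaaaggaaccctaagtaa
SNORA70 copy, intron of TMX1, chr14:51244090-51244224, plus strand: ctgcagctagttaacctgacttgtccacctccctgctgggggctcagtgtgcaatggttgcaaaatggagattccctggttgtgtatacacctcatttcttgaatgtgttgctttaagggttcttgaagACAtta

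The TGATGA of U3 lies in its 3′ part. For the other loci the search covered the gene's own strand only, with TGATGA in the first 21 bases, CTGA in the last 12 and ACA 3 bases from the 3′ end, and their capitals mark only motifs in these windows. Both C/D motifs were found in 56.9% of the 51 C/D loci kept that have a RefSeq snoRNA record at the same place, against 63.3% of all 283 such C/D loci. The ACA end was found in 70.6% of 51 recorded H/ACA loci kept, against 74.3% of all 152. The SNORD42 copy held neither C/D motif.

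With Esrrg, more of these RNAs rose than fell. Of 132 loci tested, 32 rose (24.2%) and 8 fell (6.06%), where a call needed a fold change of at least 1.5 and an edgeR p, adjusted across the 24500 genes tested, below 0.05. Over all genes, 17.3% were called higher and 16.8% lower. With library size as the only scaling, which moved the median log2 fold change of all genes from -0.10 to -0.42, 21 of these loci rose and 13 fell, against 9% and 30.8% of all genes. Under the main scaling the share that rose was therefore somewhat above the background, and the share that fell was below it. The median log2 fold change of the 132 was 0.28, against -0.10 over all genes tested. By class, 12 of 57 C/D loci rose and 5 fell, 17 of 65 H/ACA loci rose and 2 fell, and 3 of 10 Cajal body loci rose and 1 fell. The C/D and H/ACA medians were 0.29 and 0.27, so the classes lay side by side, and the Cajal body median was 0.06. The locus left untested was a SNORD58 copy on chromosome 14 with 62 counts.

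Counts reached 30 in the control libraries for 128 of the 133 loci, and of the 5 that passed the minimum mainly through the Esrrg libraries 1 was called higher. CPM values of the groups did not overlap, with Esrrg higher, for 41 loci, and with Esrrg lower for 13, against 27.8% and 30.3% of all genes tested. Esrrg replicate 2 was the lowest Esrrg library at 29 of the 32 loci that rose. It still lay above every control library at 29 of them. Without it, 50 loci rose and 11 fell. Without Esrrg replicate 3, 21 rose and 3 fell. The shares of all genes called in these fits are not shown, so these counts have no background beside them.

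**Figure D1:**
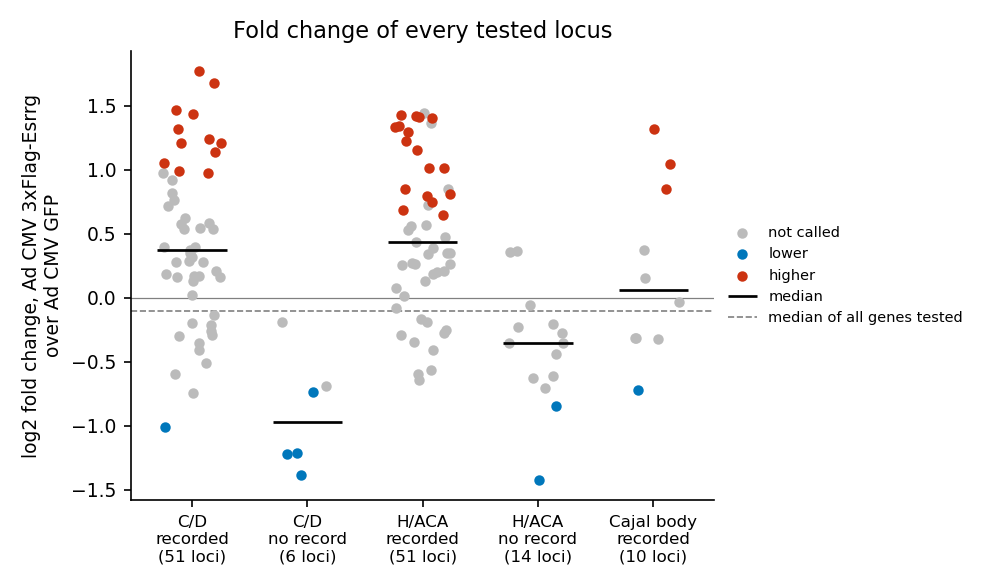
Fitted log2 fold change (vertical axis) of the 132 tested loci, split by class and by whether a RefSeq record lies at the same place; points are loci, horizontal bars are medians, and the dashed line is the median of all genes tested (-0.10). Called loci that rose all had a RefSeq record, and 6 of the 8 that fell had none.

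Whether the locus had a RefSeq record divided these calls. All 32 loci that rose were among the 112 with a record, which had a median log2 fold change of 0.38. None of the 20 tested loci without one rose, 6 of them fell, and their median was -0.52. These loci have no RefSeq snoRNA record at their place, share a symbol or its root with a known snoRNA, and are called copies here after that symbol. Some of them lie inside other genes, such as TTC28, TMX1 and NUCKS1. Their closest recorded sequence matched over 54.3% to 90.9% of bases (median 76%). For some the closest record carried another symbol, such as SNORD55 for the SNORD39 copy (72.5%), SNORD114-10 for the SNORD81 copy and SNORD36A for the SNORD79 copy. The GAS5 snoRNAs, SNORD79 and SNORD81 among them, had no recorded locus in the set compared. The matches of the SNORD79 and SNORD81 copies therefore do not measure likeness to the snoRNAs they are named after. This division was made after the values were seen and has no test.

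U3, needed for the first cuts of pre-rRNA, made up most of the signal. SNORD3A held 1307778 counts in all, 88.2% to 94.0% of the counts on these loci in each library. Its level was 3049, 3223 and 2894 CPM in control replicates 1, 3 and 4, and 4643, 15243 and 11366 CPM in Esrrg replicates 2, 3 and 4. The groups did not overlap, and replicates 3 and 4 stood far above replicate 2. The log2 fold change was 1.77 ± 0.34 SE (3.41-fold, adjusted p = 0.0017). SNORD3B-1, SNORD3B-2 and SNORD3C rose by log2 fold changes of 1.21, 1.47 and 1.68. Over the 217 bases of the U3 RNA, both SNORD3B loci differ from SNORD3A by A78C and SNORD3C by G108A, counted from 1 at the 5′ end. Reads cannot be divided safely between loci that differ by 1 base, so their separate levels are uncertain. SNORD3D, which differs at 3 bases, had 0 counts. It lies over its whole length in a same-strand exon of another gene, so it is not shown to be silent.

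The other RNAs known for pre-rRNA processing were fewer. Of 16 loci listed under rRNA processing, SNORD13 among them, 8 were kept and 6 of those rose. Over all genes tested, 17.3% rose. Of the 6, 4 were U3 loci, whose reads cannot be divided safely. SNORD13 (U13, which guides an acetylation of 18S rRNA) was at 9.78, 8.43 and 8.15 CPM in controls and 12.3, 18.8 and 20.5 CPM with Esrrg. The groups did not overlap, and the log2 fold change was 0.97 ± 0.18 SE (adjusted p = 0.0013). SNORA73B (U17b, an H/ACA RNA of early pre-rRNA cutting) was at 85.1, 64.1 and 63.3 CPM in controls and 85.4, 275 and 207 CPM with Esrrg. Esrrg replicate 2 stood only just above control replicate 1. The log2 fold change was 1.42 ± 0.33 SE (adjusted p = 0.0048). The 2 loci of this list that were kept but not called belong to SNORD14 (U14).

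**Figure D2:**
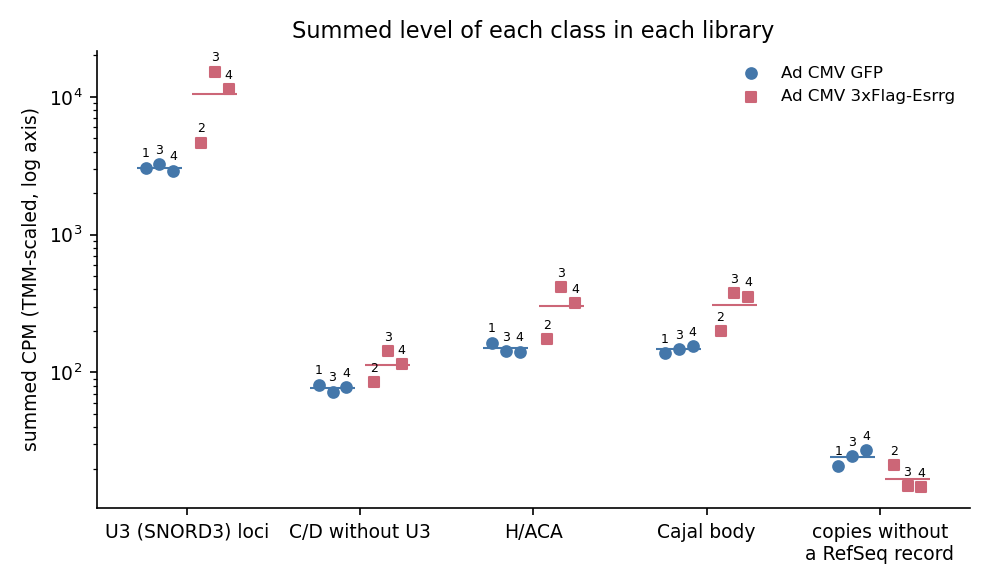
Summed TMM-scaled CPM (log axis) of U3 loci, the other C/D loci, H/ACA loci, Cajal body loci and the copies without a RefSeq record; points are single libraries numbered by replicate and bars are group means. Esrrg replicates 3 and 4 are the highest in the first 4 sets and the lowest in the copies, and Esrrg replicate 2 is closest to the controls.

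Summed over each class, the Esrrg to control ratio of mean CPM was 3.36-fold for C/D RNAs, 2.02-fold for H/ACA RNAs and 2.11-fold for Cajal body RNAs. Few RNAs set these ratios. Without the U3 loci the C/D sum was 77.04 ± 4.46 CPM (SD, n = 3) in controls and 114 ± 29.0 CPM with Esrrg, a 1.48-fold ratio. Without SNORA73B the H/ACA sum was 78.3 ± 0.525 CPM and 113 ± 24.6 CPM, a 1.44-fold ratio. The ratio of these reduced C/D to H/ACA sums was 1.03, 0.929 and 0.995 in control libraries and 0.954, 1.03 and 1.02 in Esrrg libraries. The groups overlapped, so this ratio did not separate them once U3 and SNORA73B were set aside. Without SCARNA7 the Cajal body ratio was 2.21-fold. Without SCARNA7 and SCARNA21 the Cajal body sum was 8.04 ± 0.613 CPM and 8.70 ± 1.29 CPM, a difference within the spread of the Esrrg libraries.

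Among C/D guides of introns, SNORD100, in an intron of RPS12, was at 0.567, 0.678 and 0.241 CPM in controls and 1.01, 1.48 and 1.47 CPM with Esrrg, and its log2 fold change was 1.43 ± 0.35 SE (adjusted p = 0.0072). The groups did not overlap. SNORD12C was the 1 member that rose and was highest in Esrrg replicate 2. It was at 0.531, 0.710 and 0.965 CPM in controls and 1.94, 1.63 and 1.73 CPM with Esrrg, so the 3 Esrrg libraries lay close together. Its log2 fold change was 1.24 ± 0.26 SE (adjusted p = 0.0029). SNORD17 gave the opposite picture, at 21.1, 12.4 and 15.7 CPM in controls and 14.4, 58.5 and 35.0 CPM with Esrrg. Esrrg replicate 2 lay within the controls, and the call (log2 fold change 1.14 ± 0.39 SE, adjusted p = 0.032) was lost without Esrrg replicate 3, at 0.60. SNORD12C was named after its values were seen.

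Among H/ACA guides, SNORA5C rose by a log2 fold change of 1.43 ± 0.29 SE (adjusted p = 0.0025). It was at 0.708, 1.07 and 0.664 CPM in controls and 1.53, 2.20 and 2.81 CPM with Esrrg. SNORA74D was at 1.45, 1.36 and 1.45 CPM in controls and 2.69, 4.92 and 3.66 CPM with Esrrg, with a log2 fold change of 1.41 ± 0.24 SE (adjusted p = 8.9e-04). In both, every Esrrg library exceeded every control library. SNORA74A (U19) rose by 1.34 ± 0.37 SE on the log2 scale (adjusted p = 0.012). The more abundant SNORA49 was at 5.56, 5.65 and 6.003 CPM in controls and 5.98, 13.3 and 10.8 CPM with Esrrg, so Esrrg replicate 2 lay among the controls, and its log2 fold change was 0.81 ± 0.24 SE (adjusted p = 0.017). SNORA12, of like abundance, had a log2 fold change of 0.72 ± 0.30 SE and was not called (adjusted p = 0.066).

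Of the Cajal body RNAs, SCARNA7 (U90, a methylation guide for U1 snRNA) was at 101, 102 and 114 CPM in controls and 142, 266 and 245 CPM with Esrrg. The groups did not overlap, and the log2 fold change was 1.05 ± 0.19 SE (adjusted p = 0.0015). SCARNA21 was at 29.6, 36.8 and 32.9 CPM in controls and 49.4, 99.08 and 98.97 CPM with Esrrg, again without overlap, with a log2 fold change of 1.32 ± 0.23 SE (adjusted p = 8.9e-04). SCARNA9, a guide for U2 snRNA, rose by 0.85 ± 0.25 SE on the log2 scale (adjusted p = 0.017). SCARNA3 fell, from 1.31, 1.87 and 2.35 CPM in controls to 1.195, 1.246 and 0.938 CPM with Esrrg (log2 fold change -0.72 ± 0.26 SE, adjusted p = 0.043), and its call was lost when any of 4 libraries was left out. The 6 others were not called and had log2 fold changes from -0.33 to 0.38. Per kilobase of annotated length, mean control levels were 347 CPM for SNORA73B, 320 for SCARNA7 and 238 for SCARNA21.

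Of the 8 loci that fell, 6 were copies without a RefSeq record. The SNORA62 copy on chromosome 8 was at 1.66, 2.39 and 2.32 CPM in controls and 1.12, 0.623 and 0.674 CPM with Esrrg, without overlap (log2 fold change -1.42 ± 0.28 SE, adjusted p = 0.0019). The SNORD81 copy on chromosome 7 was at 0.850, 1.13 and 1.45 CPM in controls and 0.560, 0.504 and 0.264 CPM with Esrrg, also without overlap (log2 fold change -1.39 ± 0.34 SE, adjusted p = 0.0073). Its closest recorded sequence, SNORD114-10, matched at 56.6% of bases, but SNORD81 of GAS5 was not among the records compared. Its likeness to that snoRNA was not measured. The other copies that fell were those of SNORD116 on chromosome 9, SNORD42 on chromosome 22, SNORD39 on chromosome 9 and SNORA70 on chromosome 14, named after their values were seen. Summed over the 21 copies, CPM was 20.9, 24.5 and 27.2 in controls and 21.2, 14.9 and 14.6 with Esrrg. Esrrg replicates 3 and 4, where U3 was highest, were lowest here, and replicate 2 lay within the controls. SNORD13D, a recorded relative of SNORD13, fell by 1.01 ± 0.24 SE on the log2 scale (adjusted p = 0.0058) where SNORD13 rose.

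These differences moved with the share of reads assigned to no feature. A second fit that also took this share as a covariate left SNORD12C as the 1 locus that rose (log2 fold change 1.42, adjusted p = 0.0099), and SNORA12 as the 1 that fell (-0.66, adjusted p = 0.047). Over all genes the same fit called 7.24% higher and 5.4% lower. SNORD3A then had a log2 fold change of 0.18 (adjusted p = 0.53) and SCARNA21 0.26 (adjusted p = 0.12). SNORA73B turned to -0.12 (adjusted p = 0.70), and SNORD17 to -0.56 (adjusted p = 0.19). The median over loci called higher in the first fit was 1.21 there and 0.30 in the second. The share separates the groups as well as the Esrrg libraries from each other, so with 6 libraries virus and share can be told apart only in part. ESRRG level, also lowest among the Esrrg libraries in replicate 2, was not put in a fit.

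**Figure D3:**
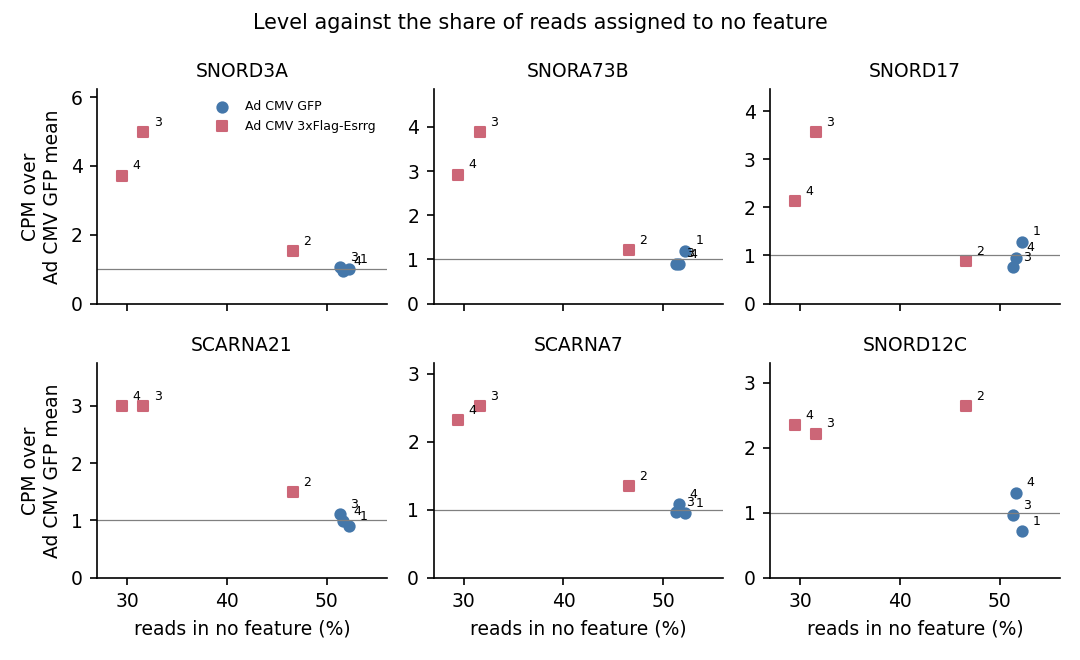
CPM divided by the Ad CMV GFP mean (vertical axis) against the share of reads assigned to no feature (horizontal axis, %), with 1 point per library numbered by replicate. Levels of 5 of the RNAs are highest in the Esrrg libraries with shares of 29.5% and 31.6%, whereas SNORD12C is as high at 46.6%.

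**Figure D4:**
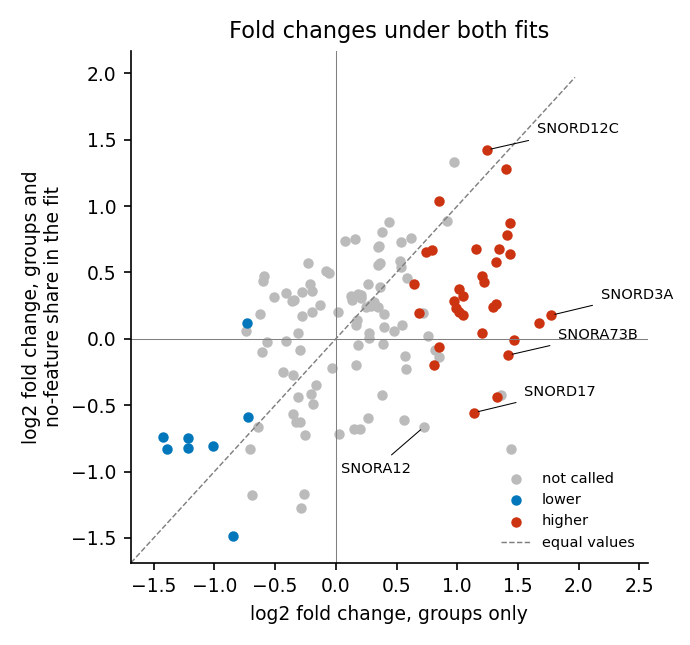
Log2 fold change of each tested locus in the fit with groups only (horizontal axis) and in the fit that also held the no-feature share (vertical axis); colours give the call of the first fit. Most loci called higher lie below the line of equal values, and SNORD12C lies above it.

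Over all genes tested, 17.3% were called higher. Abundance and length went with the calls among the 112 recorded loci. Of those with 300 or more counts 22 of 33 rose (66.7%), against 9 of 61 (14.8%) with at least 100 but under 300 and 1 of 18 (5.56%) with under 100. This total includes the Esrrg libraries, so a locus that rose also gained total count, and the split is no independent comparison. Of loci of at least 150 bases 11 of 19 rose (57.9%), against 18 of 57 (31.6%) of at least 100 but under 150 and 3 of 36 (8.33%) below 100. Genes of like count or length outside this set were not compared. The longest group holds the 4 U3 loci at annotated lengths of 581 to 791 bases in the annotation used here, well beyond the 217 bases of the RNA. Without them 7 of 15 rose. The shortest group, all C/D RNAs, had a median log2 fold change of 0.28. Longer loci also held more counts, with median totals of 522, 188 and 140.5 from the longest group to the shortest, and the parts of length and abundance were not separated.

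Host genes were compared with the RNAs inside their span, and over all genes 17.3% rose and 16.8% fell. A host here was a same-strand gene whose span holds the locus. Among the loci kept, 3 lay partly and 1 wholly in a same-strand exon of another gene, so not all were intronic. Where several qualified, a protein-coding gene was taken before a long non-coding one, and then the shortest. A long non-coding gene that spans the same locus is therefore not shown. Of the 11 recorded loci outside any host 5 rose, namely the 4 U3 loci, whose reads cannot be divided safely, and SNORD13. Of 12 in introns of ribosomal protein genes, 5 rose and none fell. Loci in other protein-coding hosts rose in 17 of 77 cases and those in long non-coding hosts in 5 of 12. Hosts of loci that rose numbered 23, of which 11 rose, 1 fell, 10 were not called and 1 was not tested. Of the 58 hosts of loci that were not called 17 rose and none fell. The median log2 fold changes of these sets of hosts were 0.69 and 0.24. Some pairs moved alike. TBRG4, the host of SNORA5C, rose by 1.46 ± 0.16 SE on the log2 scale (adjusted p = 7.7e-05). RCC1, the gene assigned by this rule to SNORA73B, rose by 0.70 ± 0.13 SE (adjusted p = 0.0015). Others did not. KPNA4, the host of SCARNA7, had a log2 fold change of -0.11 ± 0.09 SE (adjusted p = 0.33), and SNX5, the host of SNORD17, one of 0.17 ± 0.09 SE (adjusted p = 0.16). CEP295, the host of SCARNA9, went the other way. It was at 48.3, 49.4 and 41.6 CPM in controls and 33.4, 26.3 and 20.1 CPM with Esrrg (log2 fold change -0.81 ± 0.16 SE, adjusted p = 0.0022), with no overlap between groups. SCARNA9 itself lies partly in a same-strand exon, and reads that fall in 2 annotated genes are set aside as ambiguous. The difference between an RNA and its host was not tested.

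Of the genes for proteins that build these particles, 27 were listed and 25 tested. Of those 12 rose, 13 were not called and none fell, where 17.3% of all genes rose, and their median log2 fold change was 0.41. All 4 H/ACA core proteins rose: NOP10 by 1.53 ± 0.20 SE on the log2 scale, NHP2 by 1.19 ± 0.16 SE, GAR1 by 1.00 ± 0.13 SE and the pseudouridine synthase DKC1 by 0.82 ± 0.13 SE, with adjusted p-values from 1.9e-04 to 4.7e-04. Of the C/D core, NOP56 (1.19 ± 0.14 SE, adjusted p = 1.1e-04) and SNU13 (1.31 ± 0.17 SE, adjusted p = 1.9e-04) rose and NOP58 did not pass (0.15, adjusted p = 0.22). FBL, the methyltransferase, and the assembly factor ZNHIT3 were listed at 0 counts in every library and could not be tested. Among assembly factors the ATPases RUVBL1 and RUVBL2 and their partner PIH1D1 rose, RUVBL2 the most at 1.61 ± 0.17 SE (adjusted p = 6.2e-05). NOLC1 and TCOF1, nucleolar scaffold proteins, and WRAP53, which takes scaRNAs to Cajal bodies, also rose, whereas COIL, the Cajal body scaffold, was not called (0.15, adjusted p = 0.24). None of 3 genes for intron release and end trimming was called. With the no-feature share in the fit, 4 of the 25 were called higher (7.24% of all genes in that fit), SNU13, NOP56, NOP10 and RUVBL2.

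Most snoRNA loci could not be read from these counts. Of the 553, 304 were at 0 in all libraries, among them 195 of 314 C/D loci. Position in the annotation went with this. Of 190 loci that lie over their whole length inside a same-strand exon of another gene, 188 were at 0 and 1 was kept, SNORA13 in EPB41L4A-AS1 (named after its values were seen), against 129 kept of 316 that touch no other exon. The loci at 0 included all 4 snoRNAs of RPL13A, and SNORD118 (U8), SNORD22 (U22) and SNORA73A (U17a). A count of 0 allows up to 0.0734 to 0.120 CPM before TMM scaling in these libraries, which covers counting error only. HTSeq sets aside reads that fall in 2 annotated genes as ambiguous, and they made up 4.55% to 4.87% of reads in controls and 5.69%, 9.84% and 9.79% in Esrrg replicates 2, 3 and 4. A locus at 0 is therefore not shown to be silent.

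**Figure D5:**
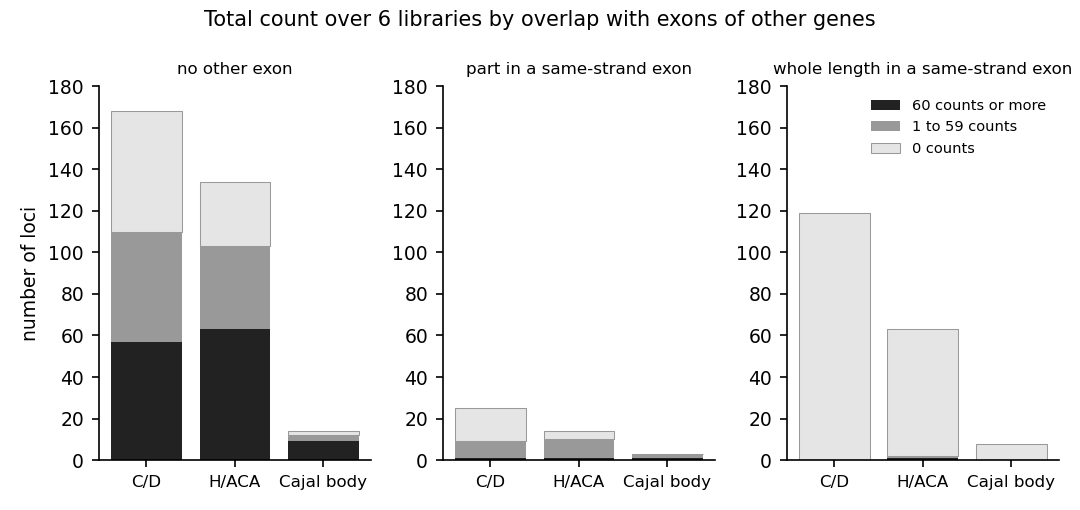
Number of loci (vertical axis) by class and by overlap with exons of other genes on the same strand, stacked by total count over the 6 libraries. Of loci wholly inside such an exon, 188 of 190 are at 0 counts, and of loci that touch no other exon 129 of 316 reach 60 counts.

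The imprinted clusters were nearly empty. None of 39 loci of the chromosome 14 cluster (SNORD113 and SNORD114) reached the minimum, and together they held 57 counts. Of 84 loci of the chromosome 15 cluster (SNORD115, SNORD116 and neighbours), 74 were at 0 and 3 were kept. Those 3 were SNORD116 loci in SNHG14 with log2 fold changes from 0.54 to 0.62, and none was called. In the cluster 17 loci have a sequence identical to another locus, and reads that align to several places were not counted. The snoRNAs of GAS5 were not analysed here.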

How the data were processed

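The deposited table holds raw HTSeq counts per Ensembl gene for 6 libraries, made by the authors. The submitters' processing notes name Trim Galore 0.6.7, STAR 2.7.9a, HTSeq 0.11.3, DESeq2 and GRCh38; the annotation release and the strand setting are not given in the sources used here. Groups came from the sample labels. Identifiers were matched without version to GENCODE release 44 (60419 of 67016, 90.2%), and records of RefSeq by position (at least 80% of the shorter feature). Members and gene lists were chosen with earlier results of these data known. The test was run in edgeR 4.0.16 (R 4.3.3): filterByExpr (24500 genes), TMM scaling and the quasi-likelihood test, with Benjamini-Hochberg adjustment over all genes tested. The SE was taken as |log2 fold change| divided by the root of the F statistic. Counts per 1000000 (CPM) use TMM factors (1.11 to 1.13 in controls, 0.835 to 1.01 with Esrrg). Sequences are GENCODE transcripts on GRCh38, cut for SNORD3A to its RefSeq bounds. Named members were the 3 most abundant of each class, up to 4 called per class and direction (mean count of 20 or more, groups not overlapping), fixed lists, and those marked as named later. Libraries of a group differed by more than sampling noise (chi-square of 3.49 to 66.0 per gene). Alternatives were DESeq2 1.42.0, other scalings, filters, cutoffs and member minimums, a replicate block, the no-feature share as a covariate and each library left out; the RefSeq split and the sums without U3 were added after the data were seen. The script was tested on simulated data. Values of 1 locus are not reported here. With 3 libraries per group an exact permutation test cannot go below p = 0.1 (two-sided), so none was used.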

Additional observations from a re-analysis of the deposited data

Results flagged for a closer look

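Reads aligned to several places are outside the counts used for these RNAs, and their share was higher in the Esrrg libraries. It was 9.33% of all reads in Ad CMV 3xFlag-Esrrg replicate 2, 12.7% in replicate 3 and 13.0% in replicate 4, against 7.16% to 7.41% in the Ad CMV GFP libraries. Which loci these reads came from cannot be read from the table, and the share for U3 or for identical SNORD115 and SNORD116 loci was not tested.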

How the results depend on the processing

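Members called higher and lower numbered 32 and 8. Across single left-out libraries they ranged from 21 to 50 and from 3 to 11: C/D loci higher from 12 to 20 and lower from 2 to 7, H/ACA loci higher from 7 to 27 and lower from 1 to 3, Cajal body loci lower from 0 to 1. H/ACA medians ranged from 0.23 to 0.40 and Cajal body medians from -0.011 to 0.23. With library size as the only scaling 21 rose (8 of them H/ACA) and 13 fell (5 H/ACA), and the medians of C/D, H/ACA and Cajal body loci became -0.038, -0.057 and -0.27. With the no-feature share as a covariate 1 rose (C/D 1, H/ACA 0, Cajal body 0), 1 fell (C/D 0, H/ACA 1, Cajal body 0) and the Cajal body median was -0.14. The log2 fold changes of SCARNA9 (-0.059), SNORA12 (-0.66), SNORA49 (-0.20), SNORA73B (-0.12), SNORD17 (-0.56) and SNORD3B-2 (-0.013) turned negative there. Tested against a 1.5-fold threshold, 16 rose (5 H/ACA) and 1 fell (C/D 0, H/ACA 1, Cajal body 0). RLE size factors gave 5 lower (H/ACA 1, Cajal body 0), DESeq2 1 H/ACA and 0 Cajal body lower, and no filter 1 H/ACA lower. At least 10 counts in every library gave 5 lower (C/D 3, H/ACA 1) and a Cajal body median of 0.24. A 2-fold cutoff gave 11 H/ACA higher and 5 lower (H/ACA 1, Cajal body 0). A minimum of 120 counts gave 5 lower (C/D 3, H/ACA 1) and medians of 0.48 (H/ACA) and 0.26 (Cajal body). Loci with a RefSeq record gave 2 lower (C/D 1, H/ACA 0) and an H/ACA median of 0.44. The log2 ratio of the C/D sum (1.75) became 0.72 without SNORD3A and 0.56 without all U3 loci, and that of the H/ACA sum (1.02) 0.53 without SNORA73B. The cause of these shifts was not tested. Replicate numbers do not pair the libraries (correlation of deviations 0.075 for number 3 and -0.0001 for number 4), and a replicate block gave 42 higher and 13 lower (C/D 8, H/ACA 4) with a Cajal body median of 0.19. Replicates 1 and 2 occur in 1 group each, so in that fit the group difference rested on replicates 3 and 4 alone. Shares of all genes called in the left-out and replicate-block fits are not shown. Of 24 tested loci under 100 counts 1 was called, and their median log2 fold change was 0.098.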
